A study of Mus musculus with 24 samples.

Results

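The response to interferon-gamma (IFN-gamma) of attached control cells was measured in 6 of the 24 RNA-seq libraries of the series. They are all the libraries of adherent cultures of the line labelled sgNTC, 3 treated with IFN-gamma and 3 with PBS, and they were chosen by those labels alone. The cells are ID8 p53-/-, a transplantable mouse ovarian cancer line without functional p53, and sgNTC is read here as the control with a non-targeting guide RNA. Wells were seeded, given recombinant mouse IFN-gamma at 100 ng/ml or the same volume of PBS after 24 hours, and harvested 24 hours later, at 48 hours. For comparison, 6 libraries came from the same sgNTC line treated likewise in ultra-low attachment (ULA) wells, where cells stay detached and from which dead cells were removed before RNA extraction. Another 6 came from adherent cells of an Ifngr1-KO line, edited at the gene for the ligand-binding chain of the IFN-gamma receptor and treated likewise. All groups share the p53 deletion. The labels number the 3 libraries of each group as biological replicates. Each genotype is 1 line, so a difference between the genotypes cannot be told apart from any other difference between those lines.

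IFN-gamma is a cytokine of T and NK cells that binds a receptor built from Ifngr1 and Ifngr2. The receptor activates the kinases Jak1 and Jak2, which phosphorylate STAT transcription factors. STAT dimers bind GAS elements and induce first-wave genes such as Irf1, and Irf1 together with complexes that hold Stat2 and Irf9 acts on interferon-stimulated response elements (ISREs) of a second wave. In tumour cells this programme is known for raising MHC class I presentation, interferon-inducible GTPases and antiviral proteins, and often for inducing class II genes, Cd274 (PD-L1) and T cell chemokines.

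The 6 libraries held 33494774 to 55947189 counts, and mitochondrially encoded genes took 2.49% to 2.94% of them. On the first principal component of these 6, which held 23.7% of their variance, the IFN-gamma libraries lay at 8.67 to 36.2 and the PBS libraries at -27.2 to -6.54. Levels are given as CPM, a library's counts of a gene scaled to a common total, and comparisons between genes as CPM per kilobase of exon. Of 15 markers of ovarian surface epithelium or mesothelium, 13 were expressed at testable levels, among them Krt19, Msln, Wt1 and Gata4. Epcam and Pax8 were too low to test. The summed level of the list was 2150 to 2441 CPM across the 6 libraries. The macrophage and lymphocyte markers Adgre1, Tyrobp, Cd3e and Nkg7 had no count in any of the 6, and Ptprc had a count in 1. Other markers were counted: 4 of 12 macrophage markers were testable, with the list summing to 12.5 to 16.75 CPM per library. Of 10 lymphocyte markers 1 was testable (0.0844 to 0.644 CPM summed). Of 9 fibroblast markers 3 were testable (90.04 to 109.8 CPM), and of 8 endothelial markers 3 (5.43 to 7.58 CPM). Cas9 transcripts stood at 1120.0, 1143 and 1060.0 CPM with IFN-gamma and 1234, 1172 and 1205 CPM with PBS. Trp53 transcripts were still counted, at 37, 33 and 34 CPM and 33.1, 31.9 and 33.4 CPM. Neither passed the test described below, although the Cas9 libraries of the groups did not overlap.

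Few genes passed the test of IFN-gamma against PBS in attached sgNTC cells, and nearly all of them went up. Of 14622 tested genes, 46 (0.315%) passed an adjusted p of 0.05 in the quasi-likelihood test of edgeR, adjusted after Benjamini and Hochberg, which gives every adjusted p below. Of these, 43 (0.294%) rose and 3 (0.0205%) fell. Among the 43, 32 rose more than 1.5-fold, 15 more than 2-fold and 7 more than 4-fold, with a median log2 fold change of 0.87 and a range of 0.32 to 4.30. The median over all tested genes was 0.00, and 49.7% of them lay above 0. At an unadjusted p under 0.05 there were 1071 genes. The number called depended on the fit, from 25 without PBS replicate 1 to 175 without the filter on low counts. A gene that did not pass was not shown to be unchanged.

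Most of the 43 genes, 35 of them, were members of at least 1 gene list. The lists were drawn up with earlier results of these data known, and the share of all tested genes in a list was not computed. This count is therefore a description and no test. The lists with raised members were the STAT and IRF factors, both families of interferon-inducible GTPases, the class I pathway, the antiviral effectors, the nucleic acid sensors, the ISG15 and PARP genes, and the death pathways. No member rose in the lists for the receptor and its kinases, class II presentation, checkpoint ligands, chemokines and cytokines, complement, NF-kB and the acute phase. Many raised genes were weakly expressed at rest: 25 of the 43 had a PBS mean under 10 CPM and 19 under 5 CPM. Many tested genes were weak as well, since 9763 of 14622 had a mean of at least 5 CPM in either group. The shares of all tested genes under these PBS means were not computed. Only B2m and Tapbp had a PBS mean of at least 100 CPM. In all 46 called genes the 3 IFN-gamma libraries did not overlap the 3 PBS libraries, a pattern found in 13.1% of all tested genes (6.72% higher and 6.38% lower with IFN-gamma).

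**Figure D1:**
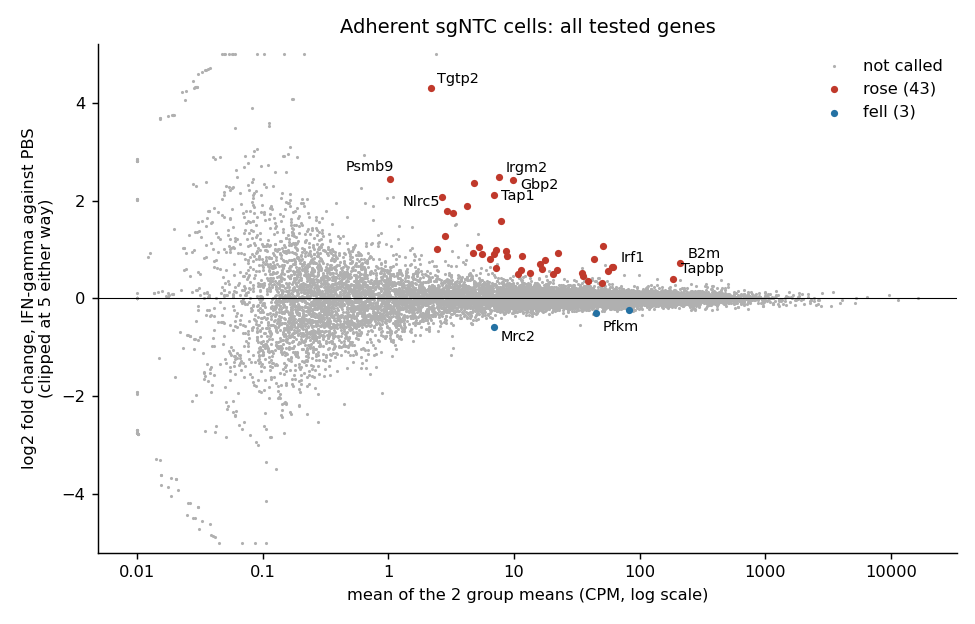
Log2 fold change (IFN-gamma against PBS, clipped at 5) of all 14622 tested genes against the mean of the 2 group means in CPM on a log scale, adherent sgNTC cells. Red points are the 43 genes that rose and blue points the 3 that fell; the raised genes lie between 1 and about 210 CPM, and the most abundant genes lie close to 0.

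No gene of the receptor or its kinases passed. None of the 14 listed receptor, kinase and feedback genes passed, none had an unadjusted p under 0.05, and their median log2 fold change was 0.02. Ifngr1 stood at 44.4, 48.1 and 44.5 CPM with IFN-gamma and 42.3, 45.5 and 41.8 CPM with PBS, and Ifngr2, the signalling chain of the receptor, at 53.6, 60.7 and 52.2 and 51.5, 56.2 and 53.5 CPM. The groups overlapped for both. Jak1 (-0.05 ± 0.05, adjusted p = 0.9) and Jak2 (0.10 ± 0.05, 0.707), given here and below as log2 fold change ± standard error followed by the adjusted p, did not pass either. Socs1, an inhibitor of the kinases and a classical feedback target of the pathway, had only 38, 18 and 24 counts with IFN-gamma and 28, 38 and 22 with PBS, which is 0.864, 0.513 and 0.722 against 0.522, 1.07 and 0.675 CPM (-0.09 ± 0.55, adjusted p = 0.997). Socs3, a related inhibitor, stood near 20 to 24 CPM in all 6 libraries (-0.10 ± 0.08, 0.854). Usp18, which limits interferon signalling and removes ISG15 from proteins, went from 0.833 ± 0.122 to 1.35 ± 0.448 CPM (SD, n = 3 each) and did not pass (0.66 ± 0.37, 0.726).

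Downstream of the receptor, 3 of 14 tested STAT and IRF factors rose and none fell, with a list median of 0.06. Irf1, the factor that drives much of the second wave, stood at 80.9, 68.8 and 73.9 CPM with IFN-gamma and 50.2, 44.2 and 48.3 CPM with PBS (log2 fold change 0.65 ± 0.09, adjusted p = 0.000246). Irf9, a DNA-binding partner of Stat2, was at 23.8, 20.5 and 23.2 CPM against 12.8, 12.8 and 13.7 CPM (0.78 ± 0.11, adjusted p = 9.05e-05). For both, the 3 treated libraries lay close together and clear of the controls. Stat2, of the ISRE-binding complex, did not pass (0.41 ± 0.10, 0.0907), although its libraries did not overlap and it passed under 4 of 14 alternatives (another tool, scaling, filter or choice of groups in the fit, or 1 library left out). The Irf1 promoter is shown because it holds the palindromic GAS element that defines the first wave. In RefSeq's GRCm38.p6 table the core TTCNNNGAA, in capitals, lies in chr11:53769912-53769944, plus strand, within 70 to 102 bases upstream of the annotated start.
Irf1: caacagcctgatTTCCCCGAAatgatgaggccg

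**Figure D2:**
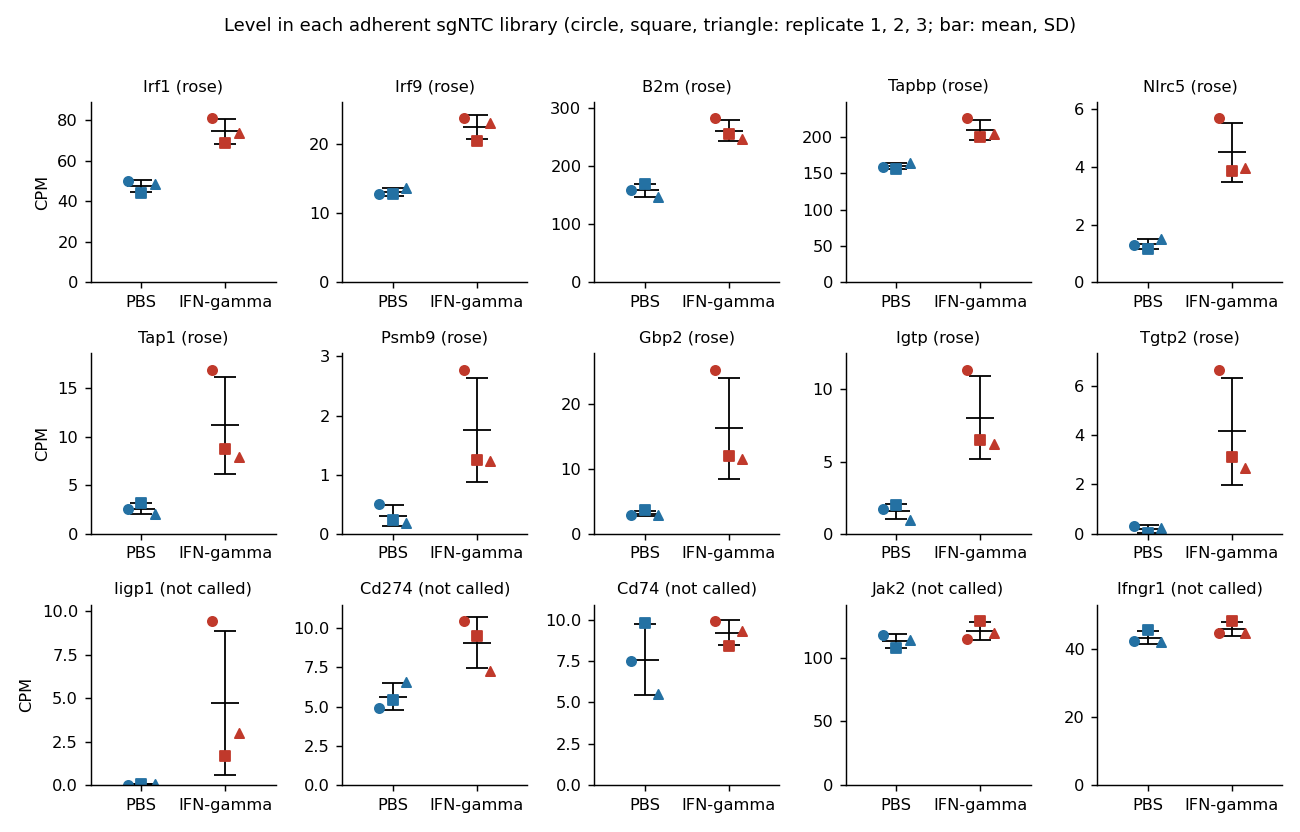
Level in CPM of 15 genes in each of the 6 adherent sgNTC libraries, PBS in blue and IFN-gamma in red, with group mean and SD (n = 3 each) and every axis starting at 0. Transcription factors and class I genes parted cleanly, and Cd74, Jak2 and Ifngr1 overlapped between the groups. IFN-gamma replicate 1 was highest in all drawn genes that rose. As a ratio, it stood furthest above the other treated libraries in the GTPases, Tap1 and Psmb9.

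The immunity-related GTPases (IRG), which attack the vacuoles of intracellular parasites and bacteria, held the 2 called genes of largest fold change, Tgtp2 and Irgm2. Of 11 tested members of the gene list 5 rose and none fell. The list median was 2.47, or 2.42 when genes without a PBS count are set at their bound or, for Gm4951, left out. The list leaves out Ifi47, a further IRG GTPase, which rose and kept its call under all 14 alternatives. Its values are given below with the genes outside the lists. Irgm2 stood at 20.6, 8.64 and 9.32 CPM with IFN-gamma and 2.29, 2.11 and 2.67 CPM with PBS (2.47 ± 0.40, adjusted p = 0.00452). Igtp was at 11.4, 6.53 and 6.23 CPM against 1.73, 1.97 and 0.951 CPM (2.36 ± 0.44, adjusted p = 0.0164), and Tgtp1 at 8.58, 5.56 and 5.71 CPM against 1.71, 2.34 and 1.35 CPM (1.89 ± 0.33, adjusted p = 0.00921). In each the lowest treated library lay above the highest control, and treated replicate 1 stood well above the other 2. Tgtp2, a near copy of Tgtp1, had only 17, 1 and 8 counts in PBS and 293, 110 and 89 with IFN-gamma, or 0.317, 0.0282 and 0.245 and 6.67, 3.14 and 2.68 CPM (4.30 ± 0.94, adjusted p = 0.0114); reads that fit both copies may have been lost or split. Irgm1, a regulator of the other IRG proteins and of autophagy, rose least of the 5, from 30.2, 34.2 and 30.1 to 65, 48.6 and 51.5 CPM (0.81 ± 0.16, adjusted p = 0.0278). The calls of listed members were sensitive to leaving out 1 library. None of the 11 was called without PBS replicate 1, 1 without IFN-gamma replicate 1 or PBS replicate 3, and 2 without PBS replicate 2. When genes with low counts were kept in the fit, 8 were called. In the fits that lost a call, the log2 fold change was 2.45 to 2.46 for Irgm2 and 2.01 to 2.53 for Igtp. It was 1.64 to 1.84 for Tgtp1, 3.76 to 4.97 for Tgtp2 and 0.67 to 0.87 for Irgm1.

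Several of the remaining IRG genes lay near the detection limit at rest. Iigp1 (Irga6) had 0, 0.0563 and 0.0614 CPM in PBS and 9.44, 1.68 and 3.01 CPM with IFN-gamma, so all treated libraries were higher, but the treated values spread from 1.68 to 9.44 CPM and the gene did not pass (7.08 ± 3.48, adjusted p = 0.126). Gm4841 had 31, 11 and 9 counts with IFN-gamma and none in PBS. Against a floor of 3 counts over the PBS group this is at least 18.5-fold higher, and for F830016B08Rik, with 21, 12 and 2 counts, at least 12.7-fold higher. Both mates of a read pair are counted, so 3 counts may be fewer than 3 molecules and these folds are not strict bounds. Neither gene passed (adjusted p = 0.238 and 0.419). Across the whole table, 38 features had a count in every IFN-gamma library and none in PBS, and 43 had the opposite pattern. By counts, Gm4841 and F830016B08Rik led the 38, followed by Rnf182 with 24 counts and Ptpn22 with 20, which were named after their counts were seen.

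The raised IRG genes lie in 2 groups on chromosome 11 of GRCm38. Irgm1, Tgtp1, Tgtp2 and Ifi47 lie within chr11:48861968-49096974, and Igtp and Irgm2 within chr11:58199556-58222782. The annotated spans of Igtp and Irgm2 overlap on the same strand, and Ifi47 overlaps another tested gene on its strand. Counts of such overlapping genes may not be fully parted. Upstream of 4 of the raised IRG genes RefSeq's GRCm38.p6 table gives nearly the same block, a GAS core and, 2 bases on, an ISRE-like core. These stretches are printed because the shared block can be compared letter by letter in 4 genes that all rose more than 2-fold. Capitals mark the GAS core TTCNNNGAA and the ISRE-like core, which is GAAA, any 2 bases (NN) and GAAA; the positions are chr11:58199499-58199543, plus strand, chr11:58214890-58214934, plus strand, chr11:48992302-48992346, minus strand and chr11:49064261-49064305, minus strand, in the order of the lines, each in the direction of its gene.
Igtp: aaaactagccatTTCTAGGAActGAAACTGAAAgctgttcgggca
Irgm2: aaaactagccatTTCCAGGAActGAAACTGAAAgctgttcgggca
Tgtp1: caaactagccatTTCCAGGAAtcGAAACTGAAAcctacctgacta
Tgtp2: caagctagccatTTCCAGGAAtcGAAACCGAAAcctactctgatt

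Both motifs were then counted in the 250 bases upstream of every tested gene with a RefSeq promoter, 10879 of the 14622, on both strands and with overlaps between motifs allowed. The GAS core was present in 7.14% of all promoters, the ISRE-like core in 3.23% and both in 0.432%. Of the 43 raised genes 37 had a promoter entry, and 7 of these (18.9%) held the GAS core, 11 (29.7%) the ISRE-like core and 5 (13.5%) both. Of 12 genes with a promoter that rose more than 2-fold, 8 held the ISRE-like core and 5 both, against 3 and 0 of the 25 that rose less. The split by fold was made after the values were seen. Several of these genes share ancestry in the IRG family, so their promoters are not independent of each other, and a match describes letters and not a bound site.

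Guanylate-binding proteins (GBP), the larger GTPases that assemble on pathogen membranes, followed with 2 of 9 tested members raised, 8 above 0 and a list median of 1.49. Gbp2 stood at 25.4, 12.1 and 11.6 CPM with IFN-gamma and 2.87, 3.6 and 2.88 CPM with PBS (2.41 ± 0.35, adjusted p = 0.00198), and per kilobase rose from 1.24 to 6.5 CPM. Gbp3, its neighbour within chr3:142560026-142638008, was at 6.19, 3.34 and 3.58 against 1.53, 0.788 and 0.675 CPM (2.07 ± 0.32, adjusted p = 0.00108). Replicate 1 was again the highest treated library in both. The others rested under 1.5 CPM. Gbp9 (0.81 ± 0.23, 0.174), Gbp7 (1.34 ± 0.38, 0.191) and Gbp4 (1.49 ± 0.43, 0.221) did not pass. Gbp5 had 8, 6 and 2 counts in PBS and 2, 0 and 8 with IFN-gamma. With genes of low counts kept in the fit, 6 members were called. The ISRE-like core upstream of Gbp2 (chr3:142620592-142620625, plus strand) and Gbp3 (chr3:142559987-142560026, plus strand) is read on the other strand, so that the letters below show TTTC, any 2 bases and TTTC.
Gbp2: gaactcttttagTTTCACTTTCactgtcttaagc
Gbp3: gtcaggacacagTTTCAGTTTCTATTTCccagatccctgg

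Both arms of MHC class I presentation, the supply of peptides and the class I molecules, held raised genes. Among 14 genes of peptide supply 7 rose, with a list median of 0.60, and among 8 tested class I chains and their regulator 2 rose, with a median of 0.28. Tap1, a subunit of the peptide transporter, stood at 16.9, 8.75 and 7.88 CPM against 2.55, 3.18 and 2.02 CPM (2.12 ± 0.34, adjusted p = 0.00396), and its partner Tap2 at 11.2, 7.87 and 8.24 against 4.96, 4.95 and 4.69 CPM (0.91 ± 0.14, adjusted p = 0.000376). Psmb9, an immunoproteasome subunit, had 2.77, 1.25 and 1.23 against 0.503, 0.225 and 0.184 CPM (2.44 ± 0.51, adjusted p = 0.0128). Tap1, Tap2 and Psmb9 lie together within chr17:34181987-34216321, and the spans of Tap1 and Psmb9 overlap on opposite strands, so unstranded counts cannot fully part them. Psmb8, the immunoproteasome subunit encoded in the same span, had 0, 2 and 0 counts in PBS and 22, 8 and 8 with IFN-gamma and did not pass (adjusted p = 0.133). Psmb9 lost its call when IFN-gamma replicate 1, PBS replicate 2 or PBS replicate 3 was left out, and Tap1 without PBS replicate 1 (adjusted p = 0.0538).

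The other raised supply genes were already expressed. Psmb10, the remaining immunoproteasome catalytic subunit, went from 14.6, 16.2 and 15.6 to 33.6, 27.1 and 26.8 CPM (0.92 ± 0.11, adjusted p = 3e-05). Erap1, the peptidase that trims class I peptides, went from 51.2, 45.3 and 45.5 to 78.9, 64.8 and 76.9 CPM (0.63 ± 0.08, adjusted p = 3e-05), with treated replicate 2 the lowest of its group and still above every control. Psme1, of the proteasome activator PA28, rose to 66 ± 7.34 from 44.9 ± 2.53 CPM (0.56 ± 0.08, adjusted p = 0.000221), and Tapbp (tapasin), which loads peptides, to 210.1 ± 13.8 from 160.2 ± 4.43 CPM (0.39 ± 0.06, adjusted p = 0.000293). Tapbpl, a peptide editor, fell just short (0.47 ± 0.11, 0.0555). None of the 14 constitutive proteasome subunits passed, 2 had an unadjusted p under 0.05, and their median was 0.06. The immunoproteasome subunits remained the minority on a per-length scale: with IFN-gamma Psmb9 was at 0.479 CPM per kilobase against 46.4 for Psmb6, its constitutive counterpart, Psmb8 at 0.118 against 79.8 for Psmb5, and Psmb10 at 17.1 against 29.4 for Psmb7.

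Among the class I molecules, the light chain B2m rose from 159, 169 and 147 to 282, 254 and 246 CPM (0.72 ± 0.11, adjusted p = 0.00295), with 3 treated libraries clear of the controls. Nlrc5, the transactivator of class I genes, rose from 1.29, 1.15 and 1.5 to 5.66, 3.85 and 3.97 CPM (1.78 ± 0.36, adjusted p = 0.0155). The heavy chains H2-D1 (174, 141 and 154 against 109, 119.9 and 129.6 CPM, 0.39 ± 0.10, 0.111) and H2-K1 (45.7, 37.4 and 38.3 against 32.5, 33 and 29.1 CPM, 0.36 ± 0.15, 0.602) did not pass, although the groups did not overlap in either; under the 14 alternatives H2-D1 passed in 4 and H2-K1 in 3. All 8 tested members lay above 0. Nlrc5 lost its call without IFN-gamma replicate 1 or any 1 of the PBS replicates, with adjusted p up to 0.14. B2m is shown with the ISRE-like core of its promoter, at chr2:122147536-122147569, plus strand.
B2m: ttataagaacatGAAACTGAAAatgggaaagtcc

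**Figure D3:**
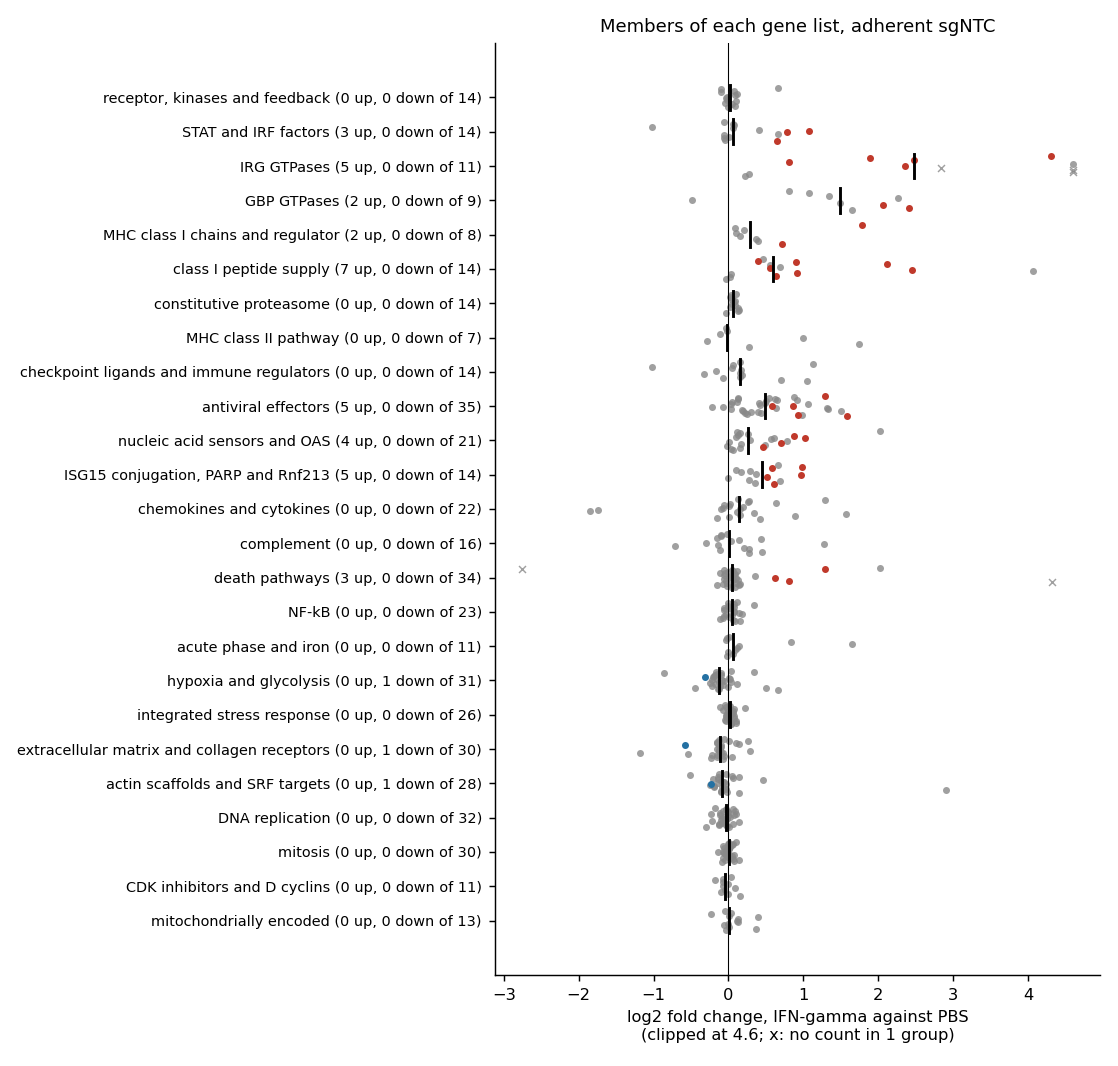
Log2 fold change of every tested member of each gene list (points; red rose, blue fell, grey did not pass, crosses had no count in 1 group), with the list median as a black bar and values clipped at 4.6. Red points gather in the GTPase, class I and antiviral lists, and the receptor, class II, checkpoint and chemokine lists hold none.

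No class II, checkpoint or chemokine gene passed in this fit. Under the 14 alternatives the class II and chemokine lists still had none, and in the checkpoint list Cd274 passed in 3, with adjusted p of 0.000133 without the filter on low counts to 0.0172 with only the groups compared. Of 7 tested class II pathway genes 1 had an unadjusted p under 0.05, and the median was -0.02. Ciita, the class II transactivator, had 12, 2 and 0 counts in PBS and 21, 10 and 11 with IFN-gamma (1.74 ± 0.67, 0.435). Cd74, the invariant chain, stood at 7.53, 9.79 and 5.49 CPM in PBS and 9.94, 8.44 and 9.32 CPM with IFN-gamma, and the groups overlapped (0.28 ± 0.37, 0.935). The class II chains H2-Ab1 and H2-Eb2 had no count in any of the 6 libraries, and H2-Aa and H2-Eb1 were too low to test. Among 14 tested checkpoint genes 3 had an unadjusted p under 0.05, and the median was 0.15. Cd274 was at 4.88, 5.4 and 6.56 CPM in PBS and 10.5, 9.49 and 7.28 CPM with IFN-gamma, with all treated libraries above all controls, and did not pass here (0.71 ± 0.29, 0.615). Tnfrsf14 (HVEM), a receptor for several immune regulators, went from 0.559, 0.478 and 0.521 to 1.57, 0.827 and 1.02 CPM, without overlap, and had the smallest adjusted p of the list (1.13 ± 0.42, 0.461). Cd47, the signal against phagocytosis, overlapped between the groups (0.15 ± 0.06, 0.531).

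Of 22 tested chemokines and cytokines none passed, 3 had an unadjusted p under 0.05, and the median was 0.14. The 3 lay above 0 and under 1 CPM in every library: the monocyte attractant Ccl7 (1.57 ± 0.70, 0.585), the alarmin Il33 (1.28 ± 0.56, 0.615) and the epithelial chemokine Ccl28 (0.89 ± 0.42, 0.666), each with overlapping groups. Cxcl10, a T cell attractant widely used as an IFN-gamma readout, was counted at 1.07, 1.08 and 1.11 CPM with IFN-gamma and 1.23, 1.01 and 1.26 CPM with PBS (-0.10 ± 0.32, 0.984). Cxcl9, the related chemokine, had 14 counts in treated replicate 1 and none in the other 5 libraries. Ido1, which breaks down tryptophan, had 5, 0 and 4 counts with IFN-gamma and none in PBS, and neither gene was tested. Csf1, the macrophage growth factor, had non-overlapping libraries at a small difference (0.12 ± 0.06, 0.692).

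Antiviral effectors rose in 5 of 35 tested members, with 33 above 0 and a median of 0.49. Ifitm3, which blocks the entry of enveloped viruses, had the smallest adjusted p of all genes, at 16.1, 14.3 and 14.5 CPM with IFN-gamma and 8.2, 9.23 and 7.33 CPM with PBS (0.86 ± 0.10, adjusted p = 1.98e-05). Bst2 (tetherin), which holds budding virions at the surface, was at 14.7, 9.15 and 11.7 against 4.23, 3.38 and 4.26 CPM (1.58 ± 0.25, adjusted p = 0.00189). Ifi203, of the DNA-binding PYHIN family, was at 6.21, 5.99 and 6.59 against 4.17, 2.31 and 3.16 CPM (0.93 ± 0.16, adjusted p = 0.00143), and overlaps its relative Mndal on the same strand. The groups were apart in all 3. Lgals3bp, a secreted galectin ligand (0.58 ± 0.11, adjusted p = 0.00452), and Xaf1, also counted among the death genes (1.28 ± 0.20, adjusted p = 0.000333), rose too. Ifi44 was the first gene beyond the threshold (adjusted p = 0.0506, at 5.87, 4.85 and 4.12 against 1.42, 2.19 and 1.75 CPM), and Idnk, at 0.0499, the last within it. The Bst2 promoter is shown because the GAS and ISRE-like cores overlap in it, at chr8:71537575-71537620, minus strand.
Bst2: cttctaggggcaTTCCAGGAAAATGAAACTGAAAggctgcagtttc

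Among 21 tested nucleic acid sensors and oligoadenylate synthetases 4 rose, with a median of 0.27. Ifih1 (MDA5), a sensor of long double-stranded RNA, stood at 18.9, 20.7 and 19.7 CPM against 12.4, 11.4 and 12.7 CPM (0.70 ± 0.09, adjusted p = 3e-05). Ddx58 (RIG-I), the sensor of short viral RNA, rose by less (0.46 ± 0.09, adjusted p = 0.00476). Oasl2 was at 12.5, 11.2 and 10.7 against 6.58, 5.68 and 6.47 CPM (0.87 ± 0.18, adjusted p = 0.0394), and Oas2, which activates RNase L through oligoadenylates, went from 1.64 ± 0.341 to 3.24 ± 0.167 CPM (1.02 ± 0.21, adjusted p = 0.0164). In these 4 genes the treated libraries lay close to each other. Zbp1, a sensor of Z-form nucleic acids, had under 0.5 CPM in every library and did not pass (2.02 ± 0.88, 0.562). Without PBS replicate 1, only 1 of the 4 was called, Ifih1, and 2 were called without PBS replicate 3 or IFN-gamma replicate 1 or 3. Oasl2 lost its call without any 1 of the 6 libraries, with adjusted p up to 0.166.

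Genes of ISG15 conjugation and the PARP family rose in 5 of 14 tested members, with a median of 0.44. Ube2l6, the E2 enzyme of ISG15, was at 10.03, 9.38 and 9.02 CPM against 4.66, 5.01 and 4.79 CPM (0.98 ± 0.16, adjusted p = 0.000765), and Uba7, its E1 enzyme, rose as well (0.58 ± 0.12, adjusted p = 0.0164). Parp14, a mono-ADP-ribosyltransferase, was at 12.6, 12.3 and 9.23 against 6.17, 6.81 and 4.39 CPM (0.97 ± 0.16, adjusted p = 0.000863). Parp12 (0.51 ± 0.07, adjusted p = 0.000106) and the ubiquitin ligase Dtx3l (0.61 ± 0.10, adjusted p = 0.000986) completed the group. Dtx3l and Parp14 lie within chr16:35832874-35939151, with Parp9 in the same span (0.37 ± 0.10, 0.114), which overlaps Dtx3l on the opposite strand. Isg15 itself, the modifier, had non-overlapping libraries at 1.96 to 2.65 CPM in PBS and 3.61 to 3.73 CPM with IFN-gamma and did not pass (0.69 ± 0.19, 0.149).

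Of 34 tested death pathway genes 3 rose, among them Casp12 and Xaf1, with a median of 0.05. Casp12, of the inflammatory caspase group, stood at 7.53, 7.9 and 9.11 CPM with IFN-gamma and 5.57, 3.97 and 4.36 CPM with PBS (0.80 ± 0.13, adjusted p = 0.000863). Xaf1 is an antagonist of the caspase inhibitor XIAP. None of 23 NF-kB genes (median 0.04), 16 complement genes (0.01), 11 acute phase and iron genes (0.06), 26 stress response genes (0.02), 32 replication genes (-0.04), 30 mitosis genes (0.00) and 11 CDK inhibitors and D cyclins (-0.05) passed. In each of these lists but complement and replication, with 2 each, at most 1 member had an unadjusted p under 0.05. Under the alternatives the complement protease C1s1 passed in 1 and the cystine transporter Slc7a11, of the stress response list, in 3.

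Outside the lists 8 genes rose. Ifi47 is an IRG GTPase that the gene list leaves out. It was at 6.19, 4.73 and 4.21 CPM with IFN-gamma and 1.17, 1.77 and 1.72 CPM with PBS (1.74 ± 0.27, adjusted p = 0.00108). Apol9a, of the apolipoprotein L family, doubled with little spread, at 7.12, 7.3 and 7.01 against 3.46, 3.35 and 3.56 CPM (1.05 ± 0.15, adjusted p = 9.05e-05). AW112010, an interferon-responsive transcript first annotated as noncoding, was at 7.8, 6.9 and 7.01 against 3.33, 4.47 and 3.83 CPM (0.91 ± 0.17, adjusted p = 0.00388). The treated libraries of these 3 lay clear of the controls. Nmi, a partner of STAT proteins, also rose (0.52 ± 0.12, adjusted p = 0.0343). The other 4 are not usual interferon markers: Spcs1, of the signal peptidase (0.32 ± 0.06, adjusted p = 0.011), Magohb, of the exon junction complex (0.49 ± 0.10, adjusted p = 0.0164), Chpt1, which makes phosphatidylcholine (0.36 ± 0.08, adjusted p = 0.0296), and the gluconate kinase Idnk (0.50 ± 0.12, adjusted p = 0.0499). Their rises were all under 1.5-fold.

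Just 3 genes fell, all by less than 1.5-fold. Pfkm, the muscle-type phosphofructokinase of glycolysis, stood at 43.7, 39.3 and 38 CPM with IFN-gamma and 50.6, 48.3 and 51 CPM with PBS (-0.31 ± 0.06, adjusted p = 0.01). Iqgap2, a scaffold of the actin cytoskeleton, was at 74.5, 76.4 and 75.9 against 98.2, 82.3 and 87 CPM (-0.24 ± 0.05, adjusted p = 0.0254), and Mrc2, an endocytic collagen receptor, at 6.83, 4.79 and 4.99 against 8.61, 8.44 and 7.88 CPM (-0.58 ± 0.13, adjusted p = 0.0278). In each the highest treated library lay below the lowest control. Each call was lost without at least 4 of the 6 libraries in turn, and none of the 3 passed in ULA sgNTC cells.

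The lists of these genes leaned down without further calls. In hypoxia and glycolysis 1 of 31 fell, 23 lay below 0 and the median was -0.12; the pyruvate kinase gene Pkm (-0.16 ± 0.06, 0.421), the platelet-type phosphofructokinase Pfkp (-0.19 ± 0.07, 0.48) and the lactate exporter Slc16a3 (-0.86 ± 0.29, 0.4) had non-overlapping libraries. Non-overlap downward was seen in 11 of the 31 members, against 6.38% of all tested genes. This pattern was not particular to that list. It was seen in 9 of 32 replication genes, 8 of 28 actin scaffolds and SRF targets, and 3 of 30 extracellular matrix genes. In extracellular matrix 1 of 30 fell (median -0.12), with Col4a2 the next (-0.22 ± 0.06, 0.249), and among actin scaffolds and SRF targets 1 of 28 (median -0.08), with Hip1r (-0.25 ± 0.06, 0.0717) and Rhob (-0.21 ± 0.06, 0.191) next.

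The treated libraries differed in how far these genes rose. Replicate 1 was the highest IFN-gamma library in 32 of the 43 raised genes and in 13 of the 15 that rose more than 2-fold, while it was highest in 31.3% of all tested genes. Summed over the 43 genes, the level was 1498 CPM in IFN-gamma replicate 1, 1303 in replicate 2 and 1281 in replicate 3, and 841 to 860 CPM in the PBS libraries. Among the 15 steep genes the highest treated library was at the median 1.61 times the lowest, and in the 28 others 1.19 times. In PBS these ratios were 1.5 and 1.12. Without IFN-gamma replicate 1 the median log2 fold change of the 15 was 1.64 instead of 1.88, and 27 of the 43 and 8 of the 15 were still called. Leaving out PBS replicate 1 left 25 genes called, all among the 43, and PBS replicate 3 left 28. In all, 22 of the 46 called genes passed without each of the 6 libraries in turn, among them Irf1, Irf9, B2m, Erap1, Psmb10, Ifitm3, Bst2, Gbp2 and Gbp3, and 24 lost the call without at least 1. In bulk RNA fewer responding cells and a weaker response of each cell cannot be told apart.

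**Figure D4:**
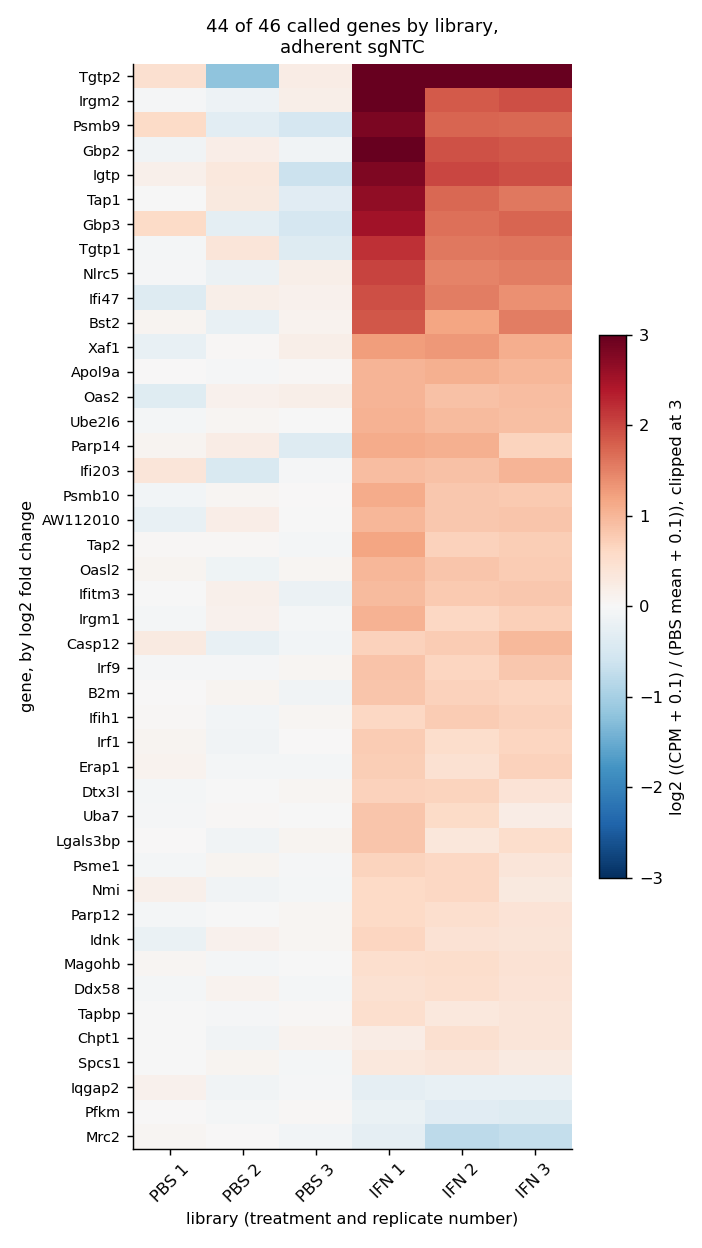
Each row is 1 of 44 of the 46 called genes and each column 1 adherent sgNTC library; colour gives the log2 ratio of CPM + 0.1 to the PBS mean + 0.1, clipped at 3. The first IFN-gamma column is darkest in the upper rows, the steeply raised GTPases, Tap1 and Psmb9, and the 3 IFN-gamma columns look alike further down.

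Whether a gene was called also followed its level. No gene under 1 CPM in both groups was called among 3221 tested, where the median standard error of a log2 fold change was 0.75. From 1 to 5 CPM 6 of 1638 were called (median standard error 0.27), from 5 to 20 CPM 22 of 2344 (0.13), from 20 to 100 CPM 16 of 4755 (0.08) and above 100 CPM 2 of 2664 (0.06). Changes of genes under 1 CPM, such as Ciita, Gbp5 and Psmb8, were therefore detectable only if large. On counts simulated from these libraries, the test recovered 40 of 50 genes raised 1.5-fold and 50 of 50 raised 3-fold. All genes changed in the simulation had a PBS level of at least 1 CPM, so recovery under 1 CPM was not tested. The simulation also changed more genes than were called in the measured counts, which eases the Benjamini-Hochberg threshold. In the measured counts Psmb8 was not called at a log2 fold change of 4.07 ± 1.42.

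Detached sgNTC cells responded in nearly all of these genes. Of the 43 raised genes 40 also rose in ULA culture, where 2.05% of all genes were called, 1.31% higher and 0.739% lower, and their median log2 fold change there was 1.02 over the 43. The exceptions were Spcs1, Magohb and Chpt1, at 0.13 ± 0.06, 0.00 ± 0.12 and 0.21 ± 0.08. The response itself differed between the cultures in 7 genes (0.0479% of those tested), all larger in ULA culture, and 781 genes had an unadjusted p under 0.05. This test reuses the 6 adherent libraries, so it is not independent of the response described so far. Among the 43, 3 differed, Irf1 and Irgm1 among them. Irf1 stood at 49.95, 49.2 and 46 CPM in the ULA PBS libraries and 152, 102 and 139 CPM in the ULA IFN-gamma libraries, a response 0.79 ± 0.13 larger on the log2 scale than in adherent culture (adjusted p = 0.00754). Irgm1 was at 71.7, 62 and 75 and 308, 203 and 348 CPM, a difference of 1.23 ± 0.21 (0.0491). This call of Irgm1 was lost without any 1 of 10 of the 12 libraries. It was also lost with only the groups compared, with or without a replicate block, and with counts halved. Irf1 lost its call without either of 2 libraries, ULA PBS replicate 3 and adherent PBS replicate 1, and with only the groups compared. In both genes ULA IFN-gamma replicate 2 was the lowest treated ULA library and still lay above every treated adherent library. Without ULA PBS replicate 3, 1 gene passed this test in place of 7, without adherent PBS replicate 1, 2 did, and 3 or 4 passed without any 1 of the other PBS libraries, ULA IFN-gamma replicate 1, or adherent IFN-gamma replicate 2 or 3. The other 4 were not called in adherent cells: Samhd1, which depletes nucleotides (0.52 ± 0.09, 0.00754), Stat2 (0.89 ± 0.14, 0.00754), Ifit2 (1.26 ± 0.24, 0.0249) and Cd74 (3.39 ± 0.56, 0.0249). Cd74 lost this call without any 1 of 9 libraries, Ifit2 of 8, Samhd1 of 3 and Stat2 of 0; with only the groups compared Samhd1 alone passed.

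For Cd74 the cultures parted at rest as well. The ULA PBS libraries had 0.907, 0.682 and 1.4 CPM, below every adherent sgNTC library, and the ULA IFN-gamma libraries had 14.6, 4.1 and 18.9 CPM, of which replicate 2 lay below every adherent sgNTC library too. For Tapbp the difference between the cultures was 0.00 ± 0.08, with a 95% interval of -0.17 to 0.17, and for Gbp2 0.06 ± 0.45, with an interval of -0.89 to 1.00. By point estimate 27 of the 43 responses were larger in ULA culture. A p that missed the threshold here does not show that the responses were equal, and the removal of dead cells from ULA wells cannot be told apart from culture.

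**Figure D5:**
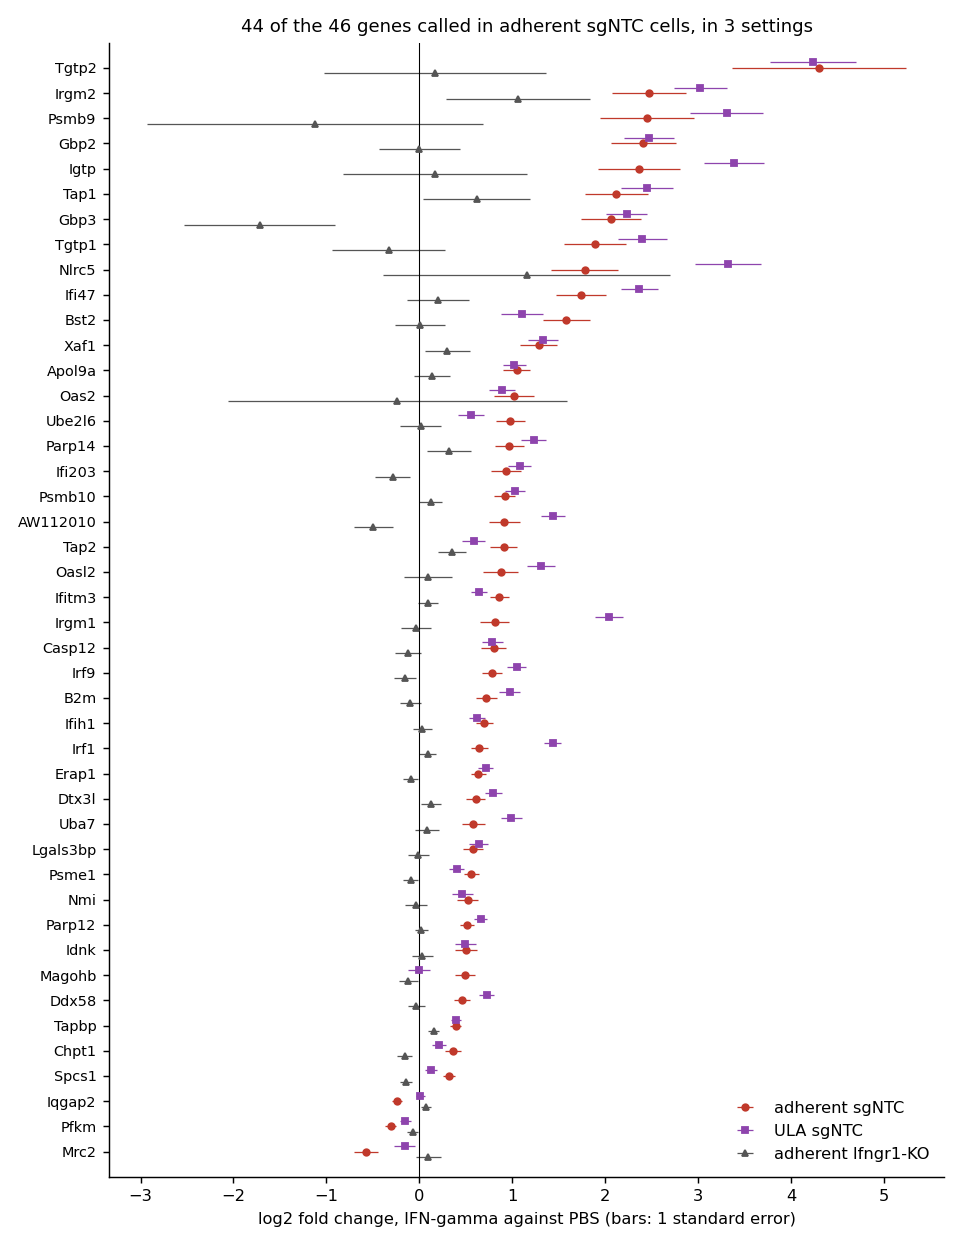
Log2 fold change (IFN-gamma against PBS, bars 1 standard error) of 44 of the 46 genes called in adherent sgNTC cells, there (red circles), in ULA sgNTC cells (purple squares) and in adherent Ifngr1-KO cells (grey triangles). Purple squares lie near or right of the red circles for most raised genes, furthest right for Nlrc5, Irgm1 and Igtp, and grey triangles scatter around 0.

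Ifngr1 transcripts stood at 14.2, 17 and 16.5 CPM in the adherent Ifngr1-KO libraries with IFN-gamma and at 14.8, 16.7 and 15.4 CPM with PBS, below all 6 adherent sgNTC libraries. In these cells none of the 43 genes rose. Their median log2 fold change there was 0.02, 25 lay above 0, 3 reached an unadjusted p under 0.05 upward and 3 downward, and 1 gene in the whole table was called (0.00684%), Scaf1, which is not among the 43. For 39 of the 43 the 95% interval in Ifngr1-KO cells left out the estimate from sgNTC cells; that interval was -0.10 to 0.28 for Irf1 and -0.92 to 0.93 for Gbp2. It included that estimate for Irgm2, Psmb9, Nlrc5 and Oas2, for which the interval was wide. The 43 genes were chosen by their sgNTC estimate, whose own error is left out here, so these counts do not test a difference. Resting levels differed too: Irgm1 was at 22.9, 23.3 and 23.8 CPM in Ifngr1-KO PBS libraries, below the sgNTC PBS libraries. Irgm2, Psmb9, Nlrc5 and Oas2 had PBS means of 0.436, 0.0323, 0.0174 and 0.0171 CPM in Ifngr1-KO cells. In sgNTC cells these means were 2.36, 0.304, 1.31 and 1.64 CPM. Erap1 was higher in Ifngr1-KO cells, with PBS means of 57.5 against 47.3 CPM. The part of such levels in the comparison was not tested. Tested as a difference of responses, which reuses the adherent sgNTC libraries, 19 genes passed (0.13%), 14 with a lower response in Ifngr1-KO cells (0.0957%) and 5 with a higher one (0.0342%), and 1630 had an unadjusted p under 0.05. Of the 43 raised genes 12 were among the 19, led by Erap1 (-0.73 ± 0.11, 0.00575), Irf9 (-0.93 ± 0.16, 0.00869), Psme1 (-0.65 ± 0.12, 0.00887) and Ifitm3 (-0.77 ± 0.15, 0.0233). Erap1 and Irf9 kept this call without each of the 12 libraries in turn, and Psme1 lost it without sgNTC PBS replicate 3. Ifitm3 lost it without any 1 of 5 libraries, with only the groups compared, with or without a replicate block, and with counts halved. Without sgNTC PBS replicate 3, 2 of the 19 were called.

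The 5 genes with a higher response in Ifngr1-KO cells had not passed in sgNTC cells. They were Scaf1 (0.44 ± 0.08, 0.00869), the cytoskeletal linker Plec (0.41 ± 0.07, 0.00887), the GTPase Rhob (0.47 ± 0.08, 0.00887), the non-muscle myosin Myh9 (0.33 ± 0.06, 0.0218) and the clathrin adaptor Hip1r (0.43 ± 0.09, 0.0262). In sgNTC cells each lay below 0 (-0.11, -0.15, -0.21, -0.11 and -0.25) and in Ifngr1-KO cells above it (0.33 ± 0.05, 0.26 ± 0.05, 0.26 ± 0.06, 0.22 ± 0.04 and 0.17 ± 0.06). Without adherent sgNTC PBS replicate 3, 2 genes passed this test in place of 19, and 10 to 12 passed without sgNTC PBS replicate 1, sgNTC IFN-gamma replicate 2 or 3, or Ifngr1-KO IFN-gamma replicate 2.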

How the data were processed

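RNA-seq of polyA RNA was analysed from the gene-level counts that the authors deposited, 1 table for each library. The program was featureCounts v2.1.1 per the file headers; it counted both mates of paired reads over exons without a strand setting. Per the submitters' processing notes, Trimmomatic, HISAT2, SAMtools and DESeq2 were also used, with build mm10/GRCm38; further versions and settings are not given in the sources used. Counting both mates doubles most counts, and unstranded counts cannot part overlapping genes on opposite strands.

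All 24 libraries were fitted together in edgeR 4.0.16 (R 4.3.3, limma 3.58.1), with 1 mean for each of the 8 groups, TMM factors of 0.958 to 1.05, genes kept by filterByExpr at a minimum count of 10, and robust quasi-likelihood tests with Benjamini-Hochberg adjustment over the 14622 genes tested. Calls have an adjusted p under 0.05. Where 28 symbols were shared by several gene IDs, the ID with the most counts kept the symbol. Log2 fold changes carry standard errors from the fitted contrast. CPM used TMM-scaled totals. Promoter sequences came from RefSeq's GRCm38.p6 table.

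The p-values measure the spread between cultures labelled as biological replicates. The labels do not say whether replicate numbers pair the samples, and the main fit treated them as unpaired. Deviations from the group means had correlations of -0.04, 0.02 and 0.03 between same-numbered libraries over 11272 genes. With only the groups compared, 101 genes were called without a replicate block and 132 with it. Pairing was not tested further. No 2 libraries of the same adherent sgNTC group agreed within counting noise. On simulated counts for 14397 genes, 9 unchanged genes were called. The members, gene lists and tests were chosen with earlier results of these data known. Named are the 46 called genes, except 2 not reported here, with values per library for those that fell and the 25 largest changes at 5 CPM or more; genes among the 4 of smallest adjusted p in a list and the 8 in each difference of responses, not all of which are given, and the receptor, pathway and control genes whatever their values. Iigp1, Gm4841, F830016B08Rik, Gbp4, Gbp5, Psmb5, Psmb6, Psmb7, Psmb8, Tapbpl, Ifi44, Isg15, Parp9, Psme2 and Cast, and the further genes of both differences, were named after their values were seen. Alternatives were DESeq2 1.42.0, other size factors, other filters, only the groups compared, a replicate block, halved counts, and each library left out.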

Additional observations from a re-analysis of the deposited data

Results flagged for a closer look

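A formal test of the difference between the responses in ULA and adherent sgNTC cells passed for 7 genes, all with a larger response in ULA culture. In 6 of them the difference on the log2 scale was 0.79 for Irf1, 1.23 for Irgm1, 0.89 for Stat2, 0.52 for Samhd1, 3.39 for Cd74 and 1.26 for Ifit2. Stat2 and Irf1 are transcription factors of the pathway itself. Ifit2, an antiviral gene that binds viral RNA, had 5.12, 4.19 and 5.08 CPM with IFN-gamma and 4.88, 5.12 and 4.05 CPM with PBS in adherent cells and 15.7, 19.5 and 25.6 CPM against 9.47, 6.88 and 8.44 CPM in ULA culture.

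The test of the difference between the responses of adherent Ifngr1-KO and sgNTC cells passed for 19 genes. The response in Ifngr1-KO cells was lower for Ifitm3 (-0.77), Erap1 (-0.73), Ifih1 (-0.66), Psmb10 (-0.80), Irf9 (-0.93), Parp12 (-0.49), Psme1 (-0.65), Casp12 (-0.92), Ifi203 (-1.22), B2m (-0.82), AW112010 (-1.41) and Spcs1 (-0.46), the 12 that had risen in sgNTC cells. It was also lower for Srek1ip1 (-0.60), a splicing factor partner, and Atp5l (-0.64), an ATP synthase subunit, neither of which had passed in sgNTC cells. It was higher for Hip1r (0.43), Rhob (0.47), Plec (0.41), Myh9 (0.33) and Scaf1 (0.44). In Ifngr1-KO cells Scaf1 stood at 90.4, 88.5 and 90.3 CPM with IFN-gamma and 70.02, 72.4 and 72.1 CPM with PBS. Of the 19, 11 were called with only the groups compared, and B2m, Parp12 and Srek1ip1 lost the call most often when 1 library was left out, without 11, 10 and 8 of the 12. The steepest rises of sgNTC cells, such as Irgm2, Gbp2 and Tap1, were not among the 19.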

How the results depend on the processing

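The count of 46 genes called in adherent sgNTC cells was 175 (141 higher, 34 lower) without the filter on low counts, 83 (73 and 10) with DESeq2, 101 (93 and 8) with only the groups compared, and 132 (113 and 19) with a replicate block. Of the 46 genes, 41 were among the calls with only the groups compared, and all 46 in the other 3 fits. Leaving out 1 library gave 25 to 40. The culture difference of 7 genes was 63 without the filter, 1 with only the groups compared and 3 with the replicate block, and 1 to 7 without 1 library. The receptor difference of 19 genes was 180 without the filter, 96 with DESeq2, 10 with counts halved and 25 with the replicate block, and 2 to 22 without 1 library. With the replicate block 9 of the 19 were among the 25, and those not called were Ifitm3, Ifih1, Parp12, Casp12, Ifi203, AW112010, Spcs1, Hip1r, Myh9 and Srek1ip1; in the culture difference the block called Irf1, Stat2 and Samhd1. The cause of these shifts was not tested. Of the 46 genes 21 kept their call under all 14 alternatives and 0 changed direction. Called genes lost outside the library removals were Gbp2, Idnk, Iqgap2, Irgm2 and Mrc2 with only the groups compared, Idnk with library totals and Oasl2 with counts halved. Among named genes that were not called, 10 passed under an alternative: Stat2 and H2-D1 under 4, Cd274, H2-K1, Gbp7 and Slc7a11 under 3, Hip1r under 2, and Gbp9, C1s1 and Rhob under 1. Uncalled values that reversed without 1 library were Ifngr2 (-0.019 to 0.087) and Socs1 (-0.31 to 0.24), both near 0, and the imprecise Slc11a1 (-0.043 to 1.17). Low counts limit most genes under 1 CPM, where no call was made.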

Other observations

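Several of the 46 called genes lie side by side in the genome. With neighbouring called genes joined where the gap was at most 250 kilobases, 15 of them formed 6 groups. Beside the IRG, GBP and Tap groups described above, Psme1 and Irf9 lie within chr14:55578123-55610030 of GRCm38, next to Psme2, the other subunit of the proteasome activator, which stood at 74.9, 54.2 and 65.4 CPM with IFN-gamma and 36.8, 39.8 and 44.9 CPM with PBS and did not pass (0.68 ± 0.17, edgeR quasi-likelihood adjusted p = 0.143). Of the 10 tested genes within the span of Irgm1, Tgtp1, Tgtp2 and Ifi47, these 4 were called. Spans of 20 called genes overlap that of another tested gene, in 14 cases on the opposite strand. Erap1 overlaps Cast, which had -0.07 on the log2 scale.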
